A study of Homo sapiens with 4 samples.

Results

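The signal recognition particle (SRP) is built on a small RNA and carries several proteins, and it docks at a receptor in the membrane of the endoplasmic reticulum. Described here are the transcripts of 7 genes: SRP14, SRP19, SRP54, SRP68 and SRP72, which encode proteins of the particle, and SRPRA and SRPRB, which encode the receptor. They were taken by Ensembl gene ID from the 60676 IDs listed in each library, and all 7 had counts in every library. SRP9, the protein that was tagged and transfected, is not among them.

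MiaPaCa cells, an established human pancreatic cancer line, carried a plasmid for 1 of 2 variants of SRP9, joined to a nuclear localisation signal and a triple FLAG tag with acGFP1 made through an internal ribosome entry site. After Geneticin selection, cells were sorted for acGFP fluorescence, so each line is a sorted pool, and its own SRP9 gene was not described as removed. The study asked which RNAs nuclear SRP9 binds. The groups are RNA co-precipitated with variant 2 (variant 2 RIP), RNA co-precipitated with variant 1 (variant 1 RIP), whole-cell RNA of the variant 2 cells (variant 2 input) and whole-cell RNA of the variant 1 cells (variant 1 input), with 1 library each. No library from cells without a tagged SRP9 was analysed here.

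SRP binds ribosomes that are making secreted or membrane proteins and brings them to the endoplasmic reticulum. SRP9 and SRP14 form a heterodimer on the Alu domain of the SRP RNA, which slows elongation of the nascent chain. SRP19, SRP54, SRP68 and SRP72 bind the other end of the RNA, the S domain, where SRP54 holds the signal peptide. SRP54 and both receptor subunits are GTPases, and SRP54 pairs with SRPRA when the particle docks. The values below are amounts of the mRNAs of these genes, not of the proteins, and they do not measure assembled particles.

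The RIP libraries were much shallower than the inputs, with 5211354 counts for variant 2 and 3921361 for variant 1, against 58815384 in the variant 2 input and 50454080 in the variant 1 input. At the limit of 3 counts, a 0 would allow up to 0.576 CPM (the count relative to the library's total) in the variant 2 RIP and 0.765 CPM in the variant 1 RIP, and 0.0510 and 0.0595 CPM in their inputs. None of the 7 genes came near that floor, and their counts ran from 113 to 479 in the RIP libraries and from 1407 to 10207 in the inputs. Levels are given as CPM scaled by the trimmed mean of M-values (TMM), which sets a trimmed, weighted mean of the log ratios between libraries to 0. Intervals are exact Poisson 95% intervals, which cover counting error only, since amplified reads are not independent molecules. Gene length was not used, so levels are compared between libraries for 1 gene and not between genes.

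SRP14 (ENSG00000140319), the partner of SRP9 on the Alu domain, was well below its input in both precipitates. Its level was 31.5 TMM-scaled CPM in the variant 2 RIP (interval 27.7 to 35.7) and 19.4 in the variant 1 RIP (16.02 to 23.4), against 183 in the variant 2 input (179 to 188) and 214 in the variant 1 input (209 to 219). Both RIP libraries were thus far below both inputs, and no neighbouring intervals overlapped among the 4 libraries. These levels come from 246 counts in the variant 2 RIP and 113 in the variant 1 RIP, against 7164.5 and 7048 in their inputs.

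Among the S-domain proteins, SRP72 and SRP68, which bind the SRP RNA as a heterodimer, had the same order of RIP below input. SRP72 (ENSG00000174780) had 35.0 TMM-scaled CPM in the variant 2 RIP and 22.9 in the variant 1 RIP, against 261 in the variant 2 input and 208 in the variant 1 input. SRP68 (ENSG00000167881) had 61.4 TMM-scaled CPM in the variant 2 RIP and 46.3 in the variant 1 RIP, against 211 in the variant 2 input and 290 in the variant 1 input. For both genes the inputs lay above the RIP libraries without overlap of intervals. SRP68 was highest in the input of variant 1 and SRP72 in that of variant 2.

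SRP19 (ENSG00000153037), which helps to shape the RNA so that SRP54 can bind, had the smallest difference between the fractions on TMM scaling. It had 46.3 TMM-scaled CPM in the variant 2 RIP (41.7 to 51.3) and 28.4 in the variant 1 RIP (24.3 to 33.1), against 50.7 in the variant 2 input (48.5 to 53.0) and 42.6 in the variant 1 input (40.4 to 44.9). The interval of the variant 2 RIP overlapped that of either input, while the variant 1 RIP was below all. On library totals SRP19 was instead higher in RIP, at 69.3 CPM in the variant 2 RIP and 42.1 CPM in the variant 1 RIP, against 33.7 and 27.9 CPM in their inputs. SRP54 (ENSG00000100883), the signal peptide-binding GTPase, had 27.3 TMM-scaled CPM in the variant 2 RIP and 46.8 in the variant 1 RIP, against 76.7 in the variant 2 input and 87.5 in the variant 1 input. Here the variant 2 RIP was the lowest library, whereas for SRP14, SRP19, SRP68 and SRP72 the variant 1 RIP was, on TMM scaling.

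The receptor genes behaved like SRP54 in that order. SRPRA (ENSG00000182934), the subunit that binds SRP54, had 19.2 TMM-scaled CPM in the variant 2 RIP and 39.0 in the variant 1 RIP, against 122 in the variant 2 input and 116 in the variant 1 input. SRPRB (ENSG00000144867), the membrane-anchored subunit, had 18.8 TMM-scaled CPM in the variant 2 RIP and 35.3 in the variant 1 RIP, against 113 in the variant 2 input and 114 in the variant 1 input. For both genes the RIP libraries differed from each other without overlap of intervals, and the intervals of the inputs overlapped.

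**Figure D1:**
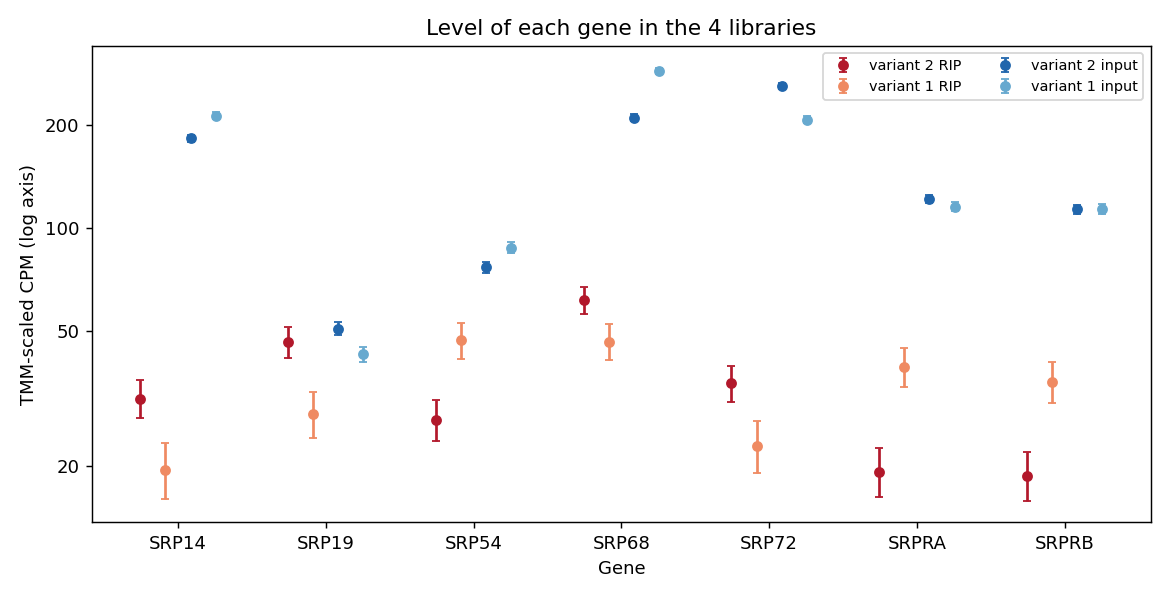
Level of each gene in the 4 libraries, in TMM-scaled CPM on a log axis. Points are single libraries and bars are exact Poisson 95% intervals. The inputs lie above the RIP libraries for every gene but SRP19, whose variant 2 RIP value (46.3) lies between its inputs (50.7 for variant 2 and 42.6 for variant 1).

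The libraries of both constructs were then combined to compare RIP with input, which asks whether the transcripts were enriched or depleted in the precipitates. Relative to TMM scaling, 6 of the 7 genes were lower in RIP and 0 were higher (quasi-likelihood test of edgeR, p under 0.05 after Benjamini-Hochberg adjustment over all 41622 IDs tested). Of all tested IDs, 15.8% were called lower and 49.5% higher. The higher calls over all IDs, 20595, became 938 without the variant 1 RIP, 1082 without the variant 2 RIP and 8289 with the construct as a replicate block. Of the IDs called higher, 1282 were input-expressed, that is, had 50 or more counts in each input. All 7 genes were, so a closer background is the 15436 input-expressed IDs, of which 42.2% were called lower and 8.31% higher. Closer still are the 4941 IDs whose CPM in both inputs lay within the range of the 7 genes (27.9 to 190), a range set after the data were seen. Of these, 84.5% were called lower and 0.526% higher. The count of 6 of 7 is thus near the share seen at their input level, and is not a result particular to SRP genes. The constructs stand in as the 2 samples of each fraction. They are not replicates, and the p-values measure only the spread between these libraries. That spread is not taken from each gene alone, since the test draws it towards the spread estimated over all tested IDs.

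The median fitted log2 ratio of RIP over input was -2.08 over the 7 genes. It was -2.01 over the IDs within their range of input CPM, -1.15 over input-expressed IDs, and 3.65 over all tested IDs. The 7 genes ranged from -3.02 to -0.32. Their quartiles were -2.59 and -1.59, beside -2.71 and -1.30 for the IDs within the input range. Whether that spread follows the genes' input levels was not tested.

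SRP72 had the lowest fitted log2 ratio, -3.02 ± 0.32 (SE, 2 libraries per fraction), an 8.09-fold lower level in RIP (edgeR adjusted p = 0.0013). SRP14 followed at -2.96 ± 0.33, or 7.77-fold lower (edgeR adjusted p = 0.0015). SRP68 was 4.65-fold lower, at -2.22 ± 0.29 (edgeR adjusted p = 0.0024). All of these had lower levels in both RIP libraries than in either input. The receptor genes fell by similar amounts, 4.22-fold for SRPRB (log2 ratio -2.08 ± 0.37, edgeR adjusted p = 0.0058) and 4.08-fold for SRPRA (-2.03 ± 0.39, edgeR adjusted p = 0.0070). SRP54 was nearest to the threshold among the called genes, with a 2.22-fold lower level (-1.15 ± 0.35, edgeR adjusted p = 0.026). Its call was lost without the variant 2 RIP (edgeR adjusted p = 0.072) or the variant 1 input (edgeR adjusted p = 0.10). It was also lost with DESeq2 size factors (edgeR adjusted p = 0.093), the DESeq2 Wald test (adjusted p = 0.12) and a minimum of 50 counts in any 2 libraries (edgeR adjusted p = 0.17), so SRP54 was called in 6 of 13 alternatives. SRP19 was not called, with a log2 ratio of -0.32 ± 0.38 (95% interval -1.23 to 0.59, edgeR adjusted p = 0.48), a direction that turned with DESeq2 size factors (0.013) and on library totals (0.86).

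The calls of SRP54, SRPRA and SRPRB depend on the scaling, which shifts all genes of a library together. With counts scaled on library totals, 3 of the 7 genes were called lower, SRP72 (log2 ratio -1.84, edgeR adjusted p = 0.0062), SRP14 (-1.78, edgeR adjusted p = 0.0071) and SRP68 (-1.04, edgeR adjusted p = 0.019). On that scaling 7.82% of all tested IDs and 40.3% of IDs within the input range were called lower. The same 3 genes were called when input-expressed IDs were fitted alone, at -1.90, -1.84 and -1.10 for SRP72, SRP14 and SRP68 (edgeR adjusted p = 0.0032, 0.0041 and 0.018), beside 23.7% of all input-expressed IDs and 44.1% of IDs within the input range. On library totals SRPRA was at -0.86 and SRPRB at -0.90 without a call (edgeR adjusted p = 0.10 and 0.079), SRP54 was at 0.025 (edgeR adjusted p = 0.96) and SRP19 at 0.86 (edgeR adjusted p = 0.097). The median of the input-expressed IDs was 0.03 on library totals, against -1.15 with TMM, which is the size of that shift. Over the IDs within the input range the median was -0.84 on library totals, close to the values of SRPRA and SRPRB, against -2.01 with TMM.

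**Figure D2:**
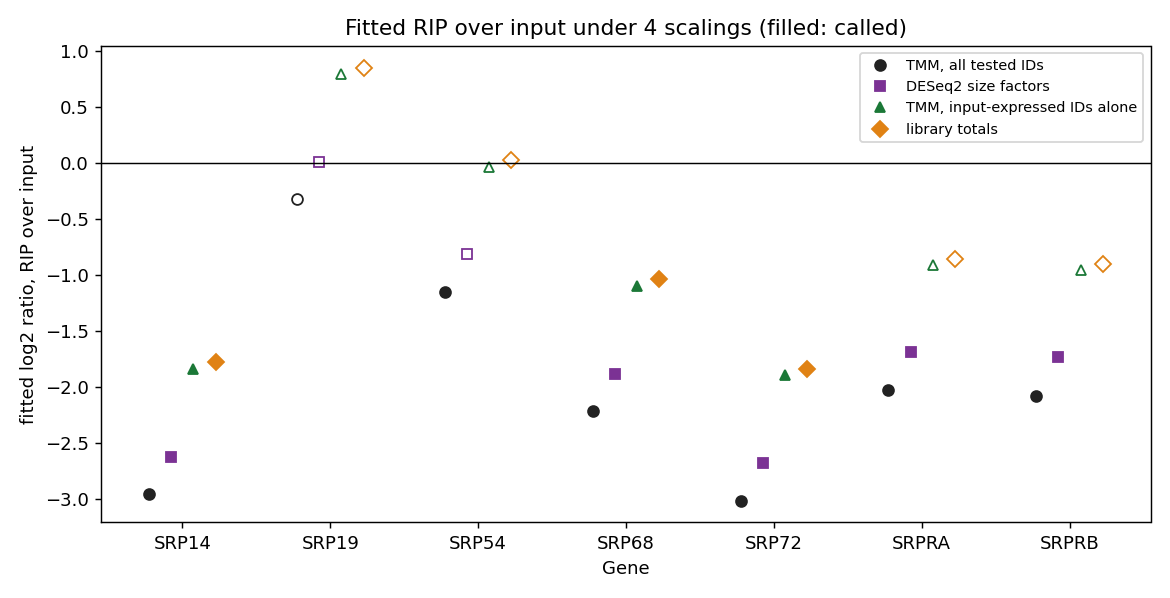
Fitted log2 ratio of RIP over input for each gene under 4 scalings, with filled symbols for genes called lower. SRP14, SRP68 and SRP72 are filled under all 4, SRP19 is open under all 4, and SRP54 moves from -1.15 with TMM to 0.025 on library totals.

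Each precipitate was also set against the input of its own cells, as paired by the labels, where 1 library per side allows no test. With variant 2, 6 of the 7 genes were at least 2-fold lower in RIP, beside 21.2% of all tested IDs and 83.8% of IDs within the input range. With variant 1 it was 5 of 7, beside 23.1% and 81.3%. SRP14 was 5.82-fold lower in RIP with variant 2 and 10.98-fold lower with variant 1. The corresponding values were 7.46-fold and 9.09-fold for SRP72, and 3.43-fold and 6.26-fold for SRP68. SRP14 and SRP68 were thus further below their input with variant 1, and the difference for SRP72 is within counting error. On library totals, and likewise with TMM factors from input-expressed IDs, 4 of 7 genes with variant 2 and 3 of 7 with variant 1 were at least 2-fold lower. The shares of all tested IDs on these scalings are not given here, so those counts cannot be told from the background. On library totals SRP14 was at 0.388 times its input with variant 2 and 0.206 times with variant 1.

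SRPRA, SRPRB and SRP54 had the opposite order, with 1 library per side. SRPRA was 6.34-fold lower in RIP than in input with variant 2 and 2.96-fold lower with variant 1. SRPRB was 6.04-fold lower with variant 2 and 3.23-fold lower with variant 1, and SRP54 was 2.81-fold and 1.87-fold lower. On library totals SRPRA was at 0.356 times its input with variant 2 and 0.765 times with variant 1, and SRPRB at 0.373 and 0.701 times. On that scaling SRP54 lay on opposite sides of its input, at 0.802 times the input level with variant 2 and 1.21 times with variant 1. SRP19 was at 0.913 times its input with variant 2, with a counting interval of the log2 ratio from -0.30 to 0.03, and at 0.667 times with variant 1 (-0.83 to -0.35). On library totals SRP19 was 2.06 times its input with variant 2 and 1.51 times with variant 1.

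**Figure D3:**
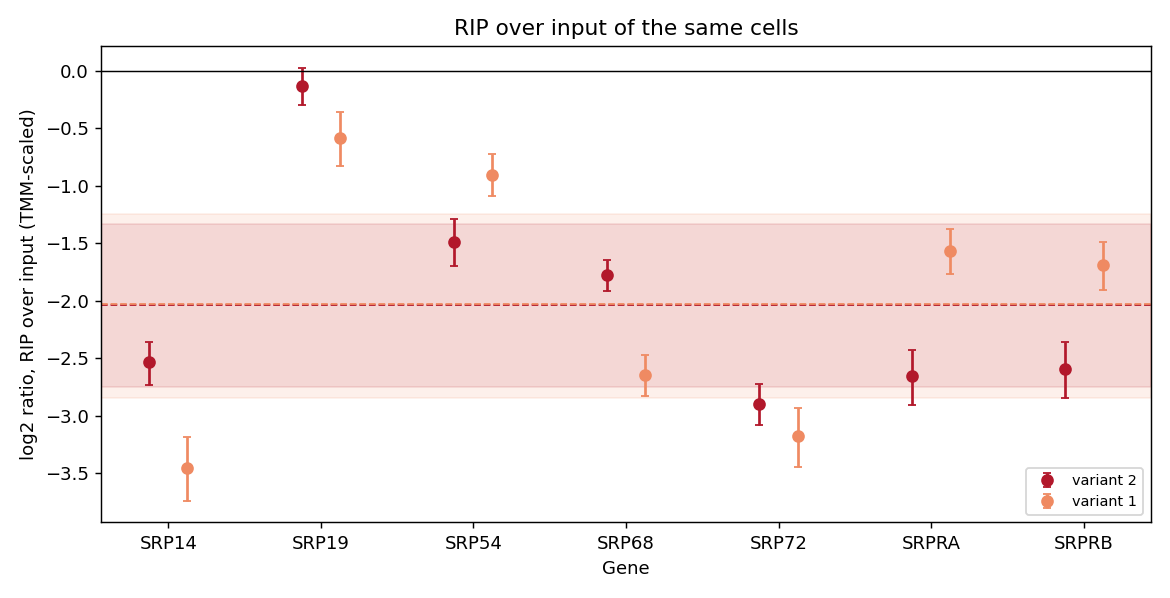
Log2 ratio of RIP over the input of the same cells for each gene, TMM-scaled with a prior count of 2, with 95% counting intervals. Shaded bands and dashed lines are the quartiles and medians of the 4941 IDs within the genes' range of input CPM. SRP14 and SRP72 lie at or below the lower part of the bands and SRP19 lies above them.

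Ratios between genes of 1 library do not depend on how libraries are scaled. Relative to SRP14, SRP19 counts were 1.47 in the variant 2 RIP and 0.277 in the variant 2 input, a 5.30-fold higher ratio in RIP (95% counting interval 4.48 to 6.28). With variant 1 they were 1.46 and 0.200, a 7.31-fold higher ratio (5.72 to 9.36). SRP19 transcripts thus made up more of the RIP counts relative to SRP14 with both variants, whatever the scaling. SRP19 also had the lowest input CPM of the 7 genes, 27.9 in the variant 1 input, the bottom of the input range. Whether its ratio to SRP14 follows from input level was not tested. SRP68 relative to SRP14 was 1.69-fold higher in RIP with variant 2 (1.45 to 1.98) and 1.75-fold higher with variant 1 (1.40 to 2.19). SRP72 relative to SRP14 was 0.779 times the input ratio with variant 2 (0.654 to 0.928) and 1.21 times with variant 1 (0.939 to 1.56).

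The intervals of SRP72 relative to SRP14 do not overlap between variants, and those of SRP19 and SRP68 do. Without SRP14 as reference, the SRP72 difference between variants was 0.28 in log2 RIP over input (-0.02 to 0.58), within counting error. For SRP54 and the receptor, each value is again from 1 library per side. SRP54 relative to SRP14 was 2.07-fold higher in RIP than in input with variant 2 (1.71 to 2.50) and 5.87-fold higher with variant 1 (4.69 to 7.34). SRPRA relative to SRP14 was 0.917 times its input ratio with variant 2 (0.746 to 1.13) and 3.71-fold higher with variant 1 (2.95 to 4.67). SRPRB gave 0.960 times with variant 2 (0.779 to 1.18) and 3.40-fold with variant 1 (2.69 to 4.29). The receptor genes thus kept their input ratio to SRP14 within counting error in the variant 2 RIP and exceeded it in the variant 1 RIP. SRP14 itself was higher with variant 2 by 0.92 in log2 RIP over input, so these contrasts between variants include its shift.

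As shares of the 7 genes' summed counts, SRP14 took 13.2% in the variant 2 RIP and 8.16% in the variant 1 RIP, against 18.0% in the variant 2 input and 19.9% in the variant 1 input. SRP19 took 19.3% in the variant 2 RIP and 11.9% in the variant 1 RIP, against 4.98% and 3.98% in their inputs. All 7 genes together made up 359 CPM of the variant 2 RIP and 353 CPM of the variant 1 RIP, against 676 and 701 CPM of their inputs, on library totals. Their sum was thus nearly equal between the RIP libraries while its composition differed.

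**Figure D4:**
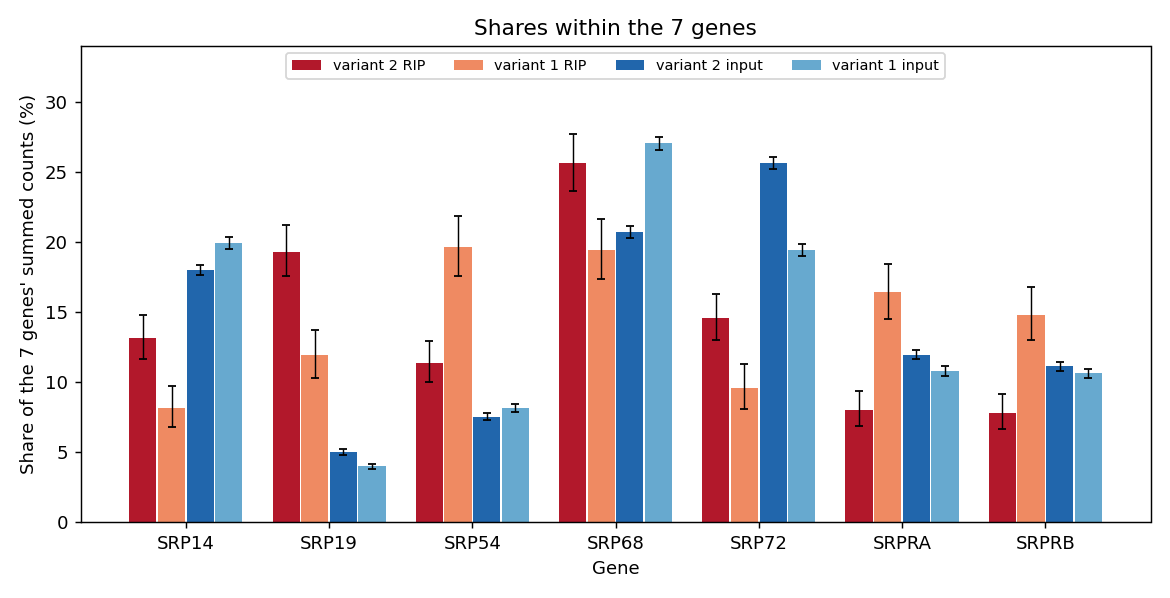
Share of each gene in the summed counts of the 7 genes, in percent, for the 4 libraries. Bars are single libraries and error bars are exact 95% binomial intervals. SRP19 has a larger share in both RIP libraries (19.3% for variant 2 and 11.9% for variant 1) than in the inputs (4.98% and 3.98%).

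The RIP libraries of the variants were compared directly, at the resolution of single libraries. In the variant 2 RIP, SRP19 and SRP14 were 1.63-fold and 1.62-fold higher than with variant 1, SRP72 was 1.53-fold higher and SRP68 1.33-fold higher. By contrast, SRPRA was at 0.492 times its variant 1 RIP level in the variant 2 RIP, SRPRB at 0.532 times and SRP54 at 0.583 times. The counting intervals excluded equality for all 7. The lower members are the 3 GTPase genes and the higher ones are the other 4, a grouping noticed after the values were seen. GTPase genes took 27.2% of the 7 genes' counts in the variant 2 RIP (exact 95% interval 25.2% to 29.3%) and 50.9% with variant 1 (48.2% to 53.5%), against 30.6% in the variant 2 input and 29.6% in the variant 1 input. The grouping follows the signs of these ratios, so the direction between the RIP libraries was set by that choice. The intervals of the shares cover counting error only.

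These differences were of ordinary size for the RIP libraries. Only SRPRA reached 2-fold, with a log2 ratio of -1.02, and it did so in the lower direction, as 18.7% of all tested IDs did. Among the IDs within the input range 9.05% were at least 2-fold lower and 12.4% at least 2-fold higher in the variant 2 RIP. Their log2 ratio between the RIP libraries varied with a scaled median absolute deviation (comparable to an SD) of 0.77, beside a range of -1.02 to 0.70 in the 7 genes. Without a repeat library, a difference between variants and the spread between precipitations cannot be told apart.

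Between the inputs the genes differed less. SRP72 was 1.26-fold and SRP19 1.19-fold higher in the variant 2 input than in the variant 1 input, while SRP68 was at 0.727 times, SRP14 at 0.859 times and SRP54 at 0.876 times. SRPRA was at 1.05 times and SRPRB at 0.995 times. None reached 2-fold, beside 10.8% of all tested IDs at least 2-fold higher and 14.1% lower, and 0.0607% and 0.0202% of IDs within the input range. The log2 ratio of SRP68, -0.46, stood at percentile 3.34 of the IDs within that range, whose scaled median absolute deviation was 0.23.

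Taking each input into account, log2 RIP over input was higher with variant 2 by 0.92 for SRP14 (counting interval 0.59 to 1.24), by 0.87 for SRP68 (0.65 to 1.09) and by 0.45 for SRP19 (0.17 to 0.74). For SRP72 it differed by 0.28 (-0.02 to 0.58), which is within counting error. For the GTPase genes the difference, variant 2 minus variant 1, was -1.09 for SRPRA (-1.40 to -0.79), -0.90 for SRPRB (-1.22 to -0.59) and -0.58 for SRP54 (-0.85 to -0.32). SRPRA alone passed 2-fold, as did 23.1% of all tested IDs and 9.96% of those within the input range in that direction, and it stood at percentile 8.30 of the IDs in that range.

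**Figure D5:**
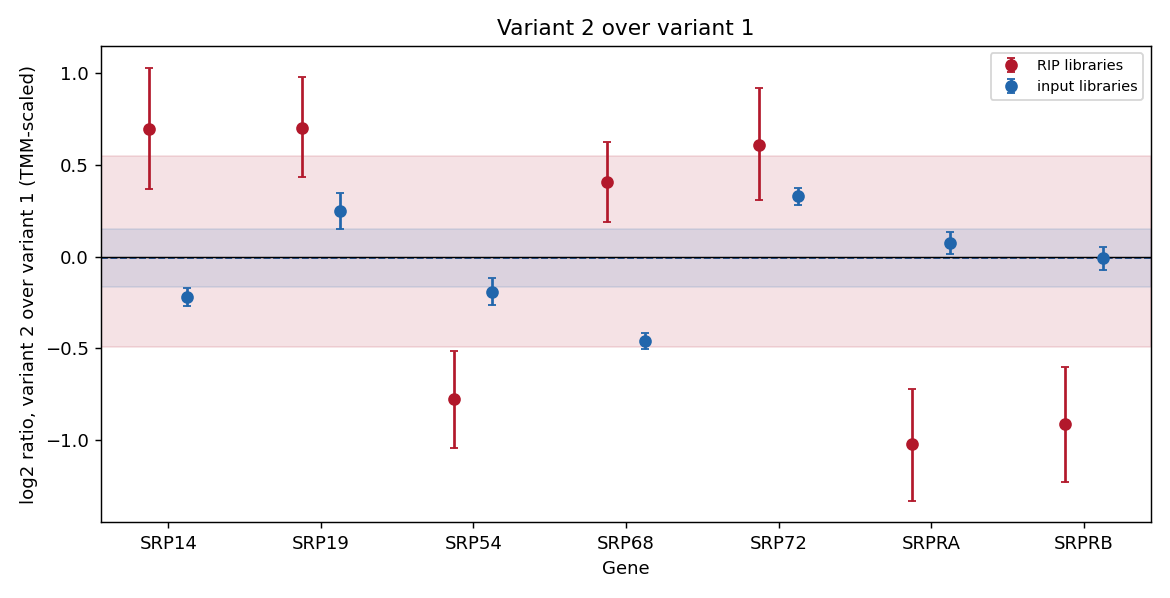
Log2 ratio of variant 2 over variant 1 for each gene in the RIP libraries and in the inputs, TMM-scaled with a prior count of 2, with 95% counting intervals. Bands and dashed lines are the quartiles and medians of the 4941 IDs within the genes' range of input CPM. In the RIP libraries SRP14, SRP19, SRP68 and SRP72 lie above 0 and SRP54, SRPRA and SRPRB below it, while the inputs lie between -0.46 and 0.33.

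Some counts are not whole numbers, which can come from reads shared out between genes or positions. SRP19 had fractional counts in all 4 libraries, SRPRA in both inputs, and SRP14, SRP72 and SRPRB in 1 library each, while SRP54 and SRP68 had whole counts throughout. In the RefSeq annotation of GRCh38.p14, SRP19 overlaps REEP5 and 2 pseudogenes, and SRPRA overlaps FAM118B and RN7SL351P, a pseudogene related to the SRP RNA. SRPRB overlaps TF, RAB6B and a long noncoding RNA, SRP68 overlaps GALR2 and SRP14 a long noncoding RNA, while SRP54 and SRP72 overlap no listed gene. With the strand setting not given in the sources used here, reads of overlapping genes may have been exchanged, and their part in the values of SRP19 and SRPRA was not tested.

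By the pair of log2 ratios of RIP over input, the IDs most like the median of the 7 genes (-2.54 with variant 2 and -1.69 with variant 1) were ENSG00000070614 (-2.52 and -1.70) and ENSG00000163636 (-2.56 and -1.70). They were nearest by Euclidean distance, at 0.022 and 0.030, among 15429 other input-expressed IDs. Each ratio rests on 1 library per side, and 23 IDs lay within a distance of 0.1.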

How the data were processed

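The authors deposited estimated counts, in reads, for each Ensembl gene ID in 4 libraries, not normalized as far as the column names and totals show. Per the submitters' processing notes, the tools were HISAT2 2.1.0 and featureCounts of Subread 2.0.0 with GRCh38.p13. The annotation release and the settings for strand and multi-mapping were not given in the sources used here. Between 13.9% and 18.0% of a library's values are fractional, and counts were rounded for tests.

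RIP was compared with input by edgeR 4.0.16 (R 4.3.3) with TMM scaling and a minimum count of 10, which kept all 7 genes. The SE is the absolute log2 ratio over the square root of F. The fit has 2 residual degrees of freedom. Single libraries were compared as log2 ratios with a prior count of 2, without a test, and 2-fold is a size only. Fold values and ratios between single libraries were taken from scaled counts without the prior count, so they differ slightly from the log2 ratios. Alternatives used library totals, DESeq2 1.42.0, limma 3.58.1, other filters and prior counts, halved counts, and each library left out.

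Per the labels, each RIP library pairs with the input of the same cells. Across the 15436 input-expressed IDs the variant differences of the RIP libraries and of the inputs had a correlation of -0.0053. The check thus gave no support for that pairing, which rests on the labels alone.

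The 7 genes were named by the rule that chose them. The RefSeq table (59792 genes) pairs 0 genes with an Ensembl ID, so other IDs, pathway lists and cell line markers were not named or used here. All 7 genes are reported in every comparison, with the 2 IDs of nearest ratios. The genes and lists were chosen with earlier results of these data known.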

Additional observations from a re-analysis of the deposited data

How the results depend on the processing

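Under the 13 alternatives of the test of RIP against input, SRP14, SRP68 and SRP72 were called lower in each, with log2 ratios from -3.35 to -1.78, -2.71 to -1.04 and -3.34 to -1.84. The count of 6 genes called lower became 3 on library totals and 3 when input-expressed IDs were fitted alone, and the count of genes called higher was 0 in all. Without 1 library, 5 to 6 genes were called lower, and SRP54 lost its call without the variant 2 RIP (edgeR adjusted p = 0.072) or the variant 1 input (edgeR adjusted p = 0.10). SRP54 also lost it with DESeq2 size factors, the DESeq2 Wald test and a minimum of 50 counts in any 2 libraries (adjusted p from 0.093 to 0.17), and was at 0.025 on library totals. SRP19, never called, turned positive on library totals (0.86), DESeq2 size factors (0.013), the DESeq2 Wald test (0.013), a minimum of 50 counts in any 2 libraries (0.20) and input-expressed IDs alone (0.80). With the construct as replicate block, the paired fit, no call among the 7 genes changed (SRP54: edgeR adjusted p = 0.040).

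Over all IDs, the 20595 higher calls became 3418 for input-expressed IDs alone, 8195 with a minimum of 50 counts in any 2 libraries, 8289 with the replicate block, and 938 to 18394 without 1 library, lowest without the variant 1 RIP (938) or the variant 2 RIP (1082). The 6583 lower calls became 3253 on library totals and 3655 for input-expressed IDs alone, and 5275 to 6452 without 1 library. Stricter filters and subsets leave fewer IDs to test. For the other alternatives the cause was not tested. Between single libraries, genes at least 2-fold lower in RIP with variant 1 numbered 3 in place of 5, and with variant 2 4 in place of 6, on library totals and with TMM factors from input-expressed IDs. With variant 2, 1 gene, SRP19, was at least 2-fold higher on library totals in place of 0. For these counts between single libraries, the shares of all tested IDs on the same scalings are not given here. The RIP libraries' depth, with as few as 113 counts for a gene, limits the precision of each ratio.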
